A study of Mus musculus with 126 samples.

Results

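The tumors described here are the epithelial-poor primary prostate tumors of an F2 mouse cross, and the question asked of them is whether those from males with metastasis differed in expression from those from males without it. The tumors were selected on measured values: one was taken when its Dsp level was under 7 on the log2 scale and its primary tumor burden was 2 g or more. Dsp encodes desmoplakin, the protein that ties desmosomes to keratin filaments, and the array holds 1 probe set for it. By this rule 89 of 126 tumors were kept, 62 from males labelled Metastasis and 27 from males labelled no metastasis. Of the other 37 tumors, 7 weighed 2 g or more and kept Dsp (5 Metastasis, 2 no metastasis) and 30 weighed less than 2 g.

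All males of both groups were hemizygous for the TRAMP transgene PB-TAg, in which the rat probasin promoter drives SV40 T antigen in prostate epithelium, and all came from an intercross of TRAMP (C57BL/6 background) with NOD/ShiLtJ, so that each male carried its own mixture of the parental genomes. They were untreated and were killed at a fixed age or earlier at a humane endpoint, and age at death was not used here. Bulk RNA of each primary tumor was hybridised to 1 Affymetrix mouse gene array, and the authors deposited RMA-normalized log2 values. The metastasis label describes the male and does not name the site of the metastasis; the RNA is from the primary tumor, so nothing here measures a metastasis itself.

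T antigen binds and inactivates the Rb and p53 proteins, and TRAMP prostates pass from intraepithelial neoplasia to large, poorly differentiated tumors in which neuroendocrine genes replace epithelial ones. Desmosomes, tight junctions and cadherins hold epithelial cells in sheets, and their loss together with a gain of mesenchymal genes is the textbook picture of cells that leave a carcinoma. Lists of growth, neural, stromal and immune genes were followed beside the epithelial ones.

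The values that chose the tumors are given without a test. Dsp ranged from 5.11 through a median of 5.56 to 6.94 in Metastasis tumors and from 5.06 through 5.55 to 6.76 in no metastasis tumors. The highest Dsp levels just inside the limit were 6.94 and 6.92, and the nearest levels outside it among tumors of 2 g or more were 7.32 and 7.57. The lightest tumor kept weighed 2.14 g, and the heaviest Dsp-low tumor left out weighed 1.8 g, 1 of 10 Dsp-low tumors under the burden limit. Among tumors under 2 g, Dsp levels of 7.00 and 7.05 lay just above the limit of 7. The scatter of Dsp against burden thus shows tumors close to both limits, and the 2 groups lie over each other within the limits.

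**Figure D1:**
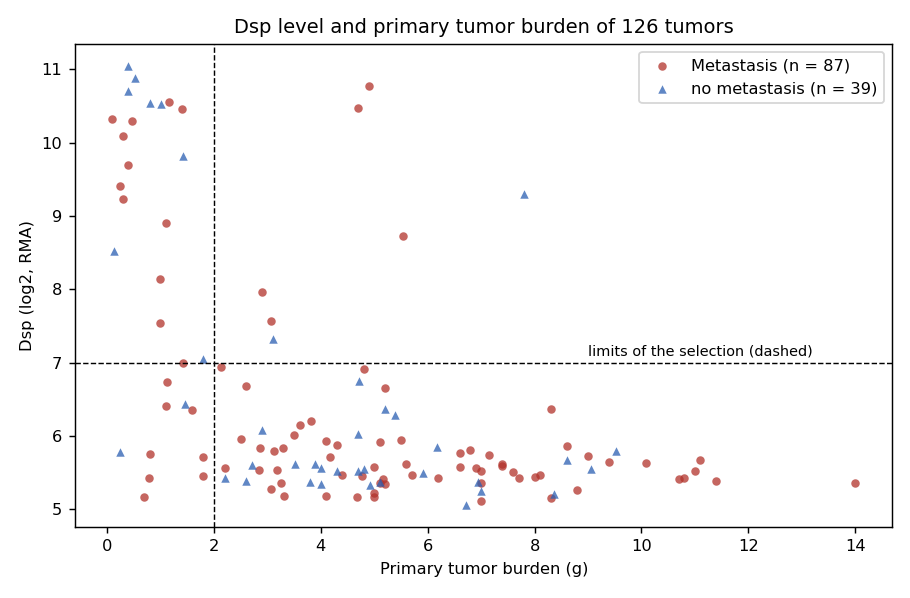
Dsp level (log2, vertical axis) against primary tumor burden (g, horizontal axis) for 126 tumors, with Metastasis tumors as red circles and no metastasis tumors as blue triangles; dashed lines mark the limits of 7 and 2 g. The lower right field holds the 89 epithelial-poor tumors, 62 Metastasis and 27 no metastasis.

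The name epithelial-poor held for the list of junction and identity genes as a whole, less for Epcam, and not for the basal epithelium list. These genes follow Dsp closely, so they are described with no test. Over 31 epithelial junction and identity genes, the mean level of a tumor had a median of 6.21 (range 5.89 to 6.70) in the 89 tumors and 7.54 (range 7.19 to 9.49) in the 7 Dsp-high tumors, and the ranges did not overlap. The 89 tumors of 2 g or more with the lowest mean of this list were the same 89 tumors. Cdh1, which encodes E-cadherin, had a median of 5.88 in the epithelial-poor tumors against 8.69 in the Dsp-high tumors, and Esrp1, an epithelial splicing regulator, had 4.70 against 7.41. The simple epithelial keratins Krt8 and Krt18 had medians of 7.31 against 9.88 and of 6.44 against 8.88. The mean of the basal epithelium list had a median of 6.15 in the epithelial-poor tumors and 6.12 in the Dsp-high tumors. Dsc3, a desmosomal cadherin, had medians of 5.48 and 5.38 and reached 11.62 in an epithelial-poor tumor, against 6.54 at most in the Dsp-high tumors. Epcam, an epithelial adhesion molecule, kept a median of 9.77 against 10.50. The neuroendocrine markers were high in the median of both, at 10.79 and 10.73 for Chga (chromogranin A) and at 11.18 and 10.88 for Ncam1 (neural cell adhesion molecule). The Dsp-high tumors were mixed, however. The mean of the neuroendocrine list ranged from 8.63 to 9.59 in epithelial-poor tumors and from 6.53 to 9.47 in Dsp-high tumors. The value of 6.53 was that of a Metastasis tumor of 4.9 g. In bulk RNA fewer epithelial cells and less epithelial RNA per cell cannot be told apart.

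The share of males with metastasis did not differ past the threshold between epithelial-poor tumors and the rest. It was recorded in 62 of 89 males (69.7%, 95% Wilson interval 59.5 to 78.2), against 5 of 7 males with a Dsp-high tumor of 2 g or more (71.4%, 35.9 to 91.8), a difference of -1.77 percentage points (Fisher's exact test, two-sided, p = 1.0). Against all 37 other males, of which 25 had metastasis (67.6%, 51.5 to 80.4), the difference was 2.10 points (Fisher's exact test, two-sided, p = 0.835). The width of these intervals leaves room for a difference of many percentage points in either direction, most of all against the 7 Dsp-high tumors.

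Burden, which chose the tumors, is likewise described with no test. It ranged from 2.14 through a median of 5.35 to 14 g in Metastasis tumors and from 2.2 through 4.8 to 9.53 g in no metastasis tumors. The means were 6.08 ± 2.69 g (SD, n = 62) and 5.25 ± 2.0 g (SD, n = 27), 0.83 g apart, which is less than either SD. The heaviest tumors, from 10 g up, all belonged to the Metastasis group, but the groups overlapped from 2.2 to 9.53 g. The labels number the mice with tags, which served as the only available stand-in for batch. Within the 4 ranges of tag number the difference was 1.68, -0.41, 0.51 and 0.97 g, from the lowest tags to the highest, so that its sign was not the same in all of them.

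No gene passed the threshold between Metastasis and no metastasis tumors. Of 23507 named probe sets, 0 (0%) had an adjusted p under 0.05 by limma with Benjamini-Hochberg adjustment over all of them, and the smallest adjusted p was 0.9999. At an unadjusted p under 0.05 there were 2.63% of them, 302 higher (1.28%) and 316 lower (1.34%) in Metastasis tumors. The methods' t-test and a rank-sum test also called 0 after Benjamini-Hochberg adjustment, with 2.62% and 2.99% of the probe sets at an unadjusted p under 0.05. For no probe set were the groups free of overlap. The 13703 probe sets with no gene symbol gave 0 calls by limma and 398 at an unadjusted p under 0.05.

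The histogram of the unadjusted p-values shows fewer small values than an equal spread would hold. Its first bin, up to 0.05, holds the 2.63% just given, where bins filled equally would each hold 1175 probe sets.

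**Figure D2:**
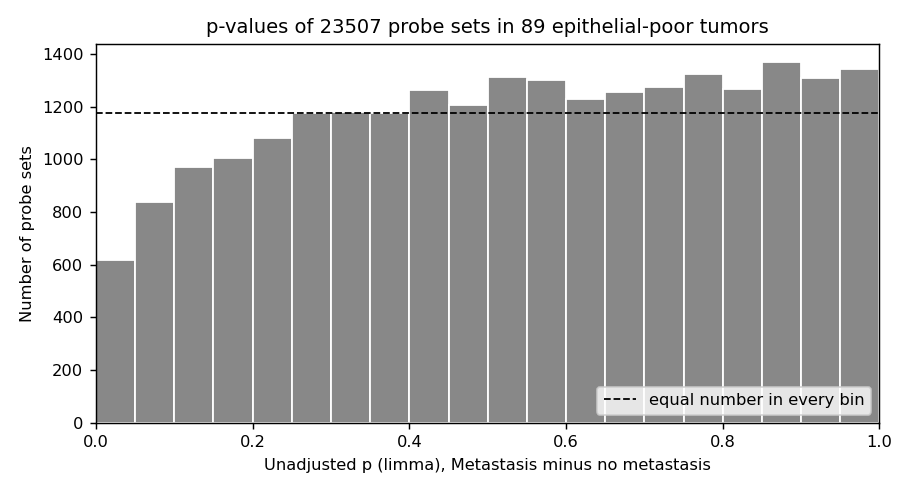
Number of probe sets (vertical axis) by unadjusted limma p of Metastasis minus no metastasis (horizontal axis, bins of 0.05) over 23507 probe sets in 89 tumors; the dashed line is the number in every bin were they filled equally. The first bin, with 2.63% of the probe sets, lies below the line at 1175.

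The intervals show how large a difference these 89 tumors could have hidden. The median absolute difference was 0.03 log2 units and the median half-width of the 95% interval was 0.10. For 84.5% of the probe sets the whole interval lay within 0.25 log2 units of 0, for 97.2% within 0.5, and for 99.9% within 1. A difference over 0.5 in either direction was measured for 11 probe sets, and a difference over 1 for 0. The intervals are those of single probe sets, not widened for the number tested. The tumors themselves varied more than the groups did, with a median SD of 0.22 over the 89 tumors and 310 probe sets with an SD over 1.

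The genes named next stood first by unadjusted p in either direction, and none of them passed the adjusted threshold. Tph1, which encodes the enzyme of the first step of serotonin synthesis outside the brain, had the smallest p. It ranged from 4.93 through a median of 5.80 to 7.53 in Metastasis tumors and from 5.27 through 6.46 to 9.65 in no metastasis tumors. Most of both groups lay in the same range, and every value above 7.53 was in a no metastasis tumor. The difference was -0.66 (95% interval -0.98 to -0.33, limma unadjusted p = 0.000124, adjusted p = 0.9999). It was negative in 4 of 4 tag ranges, from -0.77 to -0.15, and lay between -0.71 and -0.54 when any 1 of the 89 tumors was left out.

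Grik1, a subunit of kainate-type glutamate receptors, ranged from 4.13 through 5.37 to 6.79 in Metastasis tumors and from 4.24 through 6.03 to 6.99 in no metastasis tumors. The medians lay apart while the ends of both ranges nearly met. The difference was -0.58 (95% interval -0.91 to -0.26, limma adjusted p = 0.9999), negative in 4 of 4 tag ranges (-0.79 to -0.30). Pacsin1, a membrane-bending protein of synaptic vesicle recycling, had medians of 6.86 in Metastasis tumors and 7.06 in no metastasis tumors, a difference of -0.20 (95% interval -0.31 to -0.08).

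On the other side Slc16a6, a member of the monocarboxylate transporter family, ranged from 6.35 through 7.14 to 7.85 in Metastasis tumors and from 6.32 through 6.81 to 7.62 in no metastasis tumors. The difference was 0.25 (95% interval 0.10 to 0.40). Pan2, the catalytic subunit of a deadenylase that shortens mRNA tails, ranged from 9.13 through 9.51 to 10.49 in Metastasis tumors and from 8.96 through 9.40 to 9.79 in no metastasis tumors, a difference of 0.18 (95% interval 0.07 to 0.28). Both groups filled nearly the same range for these 2 genes, as the plot of single tumors shows. Slc16a6 and Pan2 were higher in Metastasis tumors in 4 of 4 tag ranges.

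**Figure D3:**
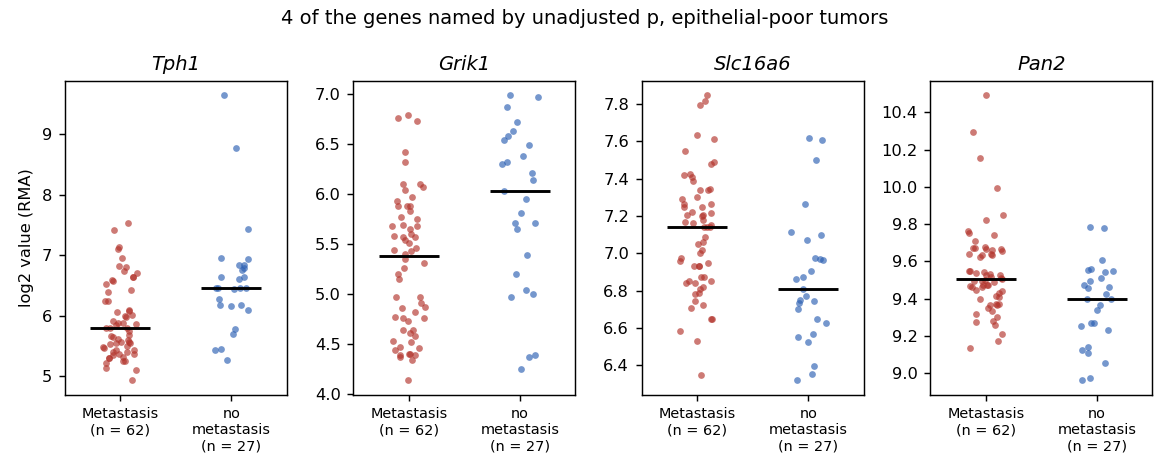
log2 values (vertical axes) of Tph1, Grik1, Slc16a6 and Pan2 in single epithelial-poor tumors, 62 Metastasis (left, red) and 27 no metastasis (right, blue); black bars are medians. The medians of Tph1 are 5.80 and 6.46 and those of Grik1 5.37 and 6.03, and in all 4 genes the groups overlap over most of their range.

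The remaining leading genes differed by at most 0.21 in size. Higher in the mean of Metastasis tumors were Cts8-ps (0.15), Pm20d2 (0.15), Thoc2l (0.16), Epop (0.17; a partner of Polycomb complexes), Mir669k (0.17), 1700123M08Rik (0.14), Gm17764 (0.08) and Nup188 (0.13; a nuclear pore protein). Lower were Mup5 (-0.21; one of the major urinary proteins, whose near-identical copies can share probes), Olfr368 (-0.16), Elmo3 (-0.09), 1600014C10Rik (-0.10), Bpifb2 (-0.13), Olfr1490 (-0.10) and Pmvk (-0.11; phosphomevalonate kinase of the mevalonate pathway). Pm20d2, Mup5, Olfr368, 1600014C10Rik and Pmvk changed sign in 1 of the 4 tag ranges.

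The largest differences in size among probe sets with 1 symbol, chosen after their values were seen, ran toward lower levels in Metastasis tumors and lay in genes that varied widely in both groups. The largest was that of 2900055J20Rik, at -0.87 (95% interval -1.53 to -0.20). Gpm6a, a neuronal membrane glycoprotein, ranged from 5.59 through 8.73 to 11.79 in Metastasis tumors and from 5.80 through 9.47 to 11.33 in no metastasis tumors, a difference of -0.68 (95% interval -1.46 to 0.10). Cped1 differed by -0.64 (95% interval -1.29 to 0.01). Kctd16, an auxiliary subunit of GABA-B receptors, differed by -0.61 (95% interval -1.16 to -0.05). Calcr, the calcitonin receptor, differed by -0.53 (95% interval -1.30 to 0.23) and Glra3, a glycine receptor subunit, by -0.54 (95% interval -1.20 to 0.12). Each of them had an adjusted limma p of 0.9999.

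Of 461 genes in 29 lists, 416 were tested. Of these 0 had an adjusted p under 0.05 and 8 (1.92%) an unadjusted p under 0.05, beside 2.63% of all probe sets. The list medians ran from -0.10 for the seminal vesicle list to 0.09 for the skeletal muscle list, and over all 23507 probe sets the median was 0.00 with 50.2% of the differences above 0.

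**Figure D4:**
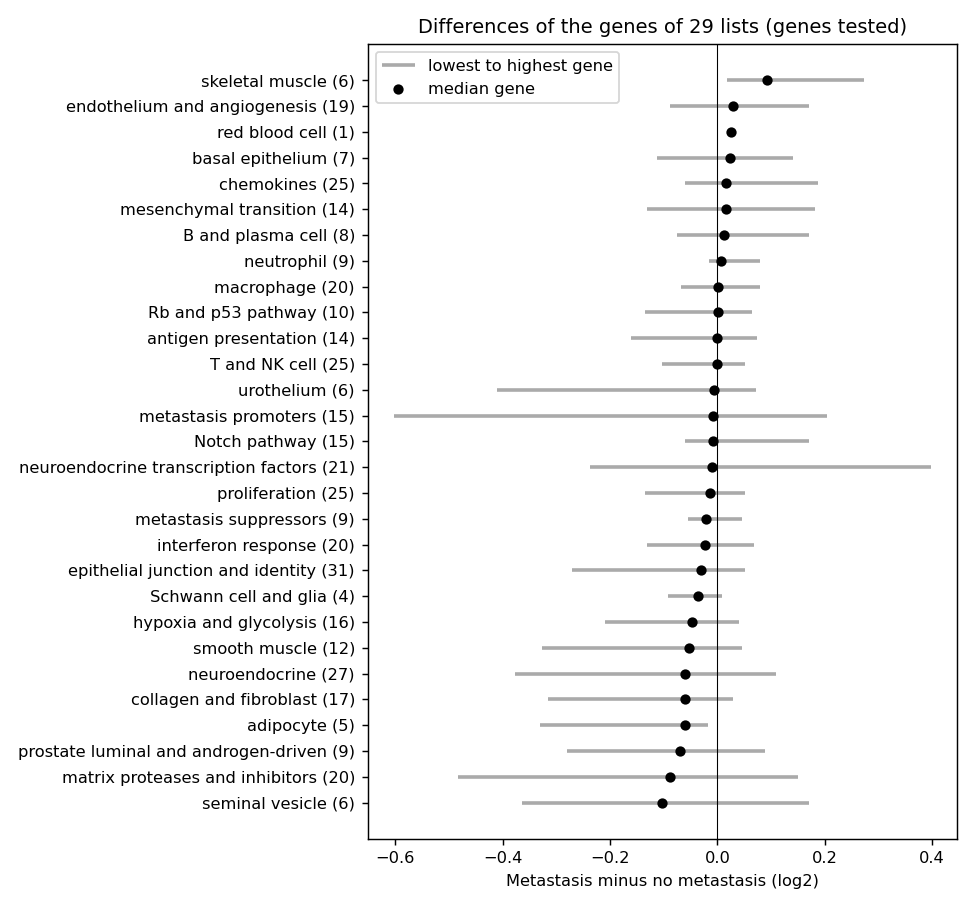
Difference in level, Metastasis minus no metastasis (log2, horizontal axis), for the genes of 29 lists in 89 tumors, with the number tested in brackets; grey bars run from the lowest to the highest gene and black dots mark the median gene. The medians lie between -0.10 and 0.09.

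Neuroendocrine genes were high in both groups, and none differed past the threshold. The mean level of the 27 genes tested was 9.07 ± 0.19 in Metastasis tumors and 9.16 ± 0.21 in no metastasis tumors (SD). Of the 27 differences 23 were negative, with a median of -0.06, and since the genes vary together across tumors these signs are not independent. Chga ranged from 9.62 through 10.83 to 11.70 in Metastasis tumors and from 9.85 through 10.75 to 11.42 in no metastasis tumors, a difference of -0.06 (95% interval -0.25 to 0.13). Chgb, chromogranin B, differed by -0.06 (95% interval -0.30 to 0.19) and Uchl1, a neuronal ubiquitin hydrolase, by -0.14 (95% interval -0.29 to 0.00). The widest interval of the genes named here belonged to Scg2, secretogranin II, at -0.33 (95% interval -1.05 to 0.40).

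The transcription factors of this program gave medians near 0. Over 21 neuroendocrine transcription factors the median difference was -0.01, with 9 above 0 and 12 below. Neurod1, a proneural bHLH factor, lay at medians of 4.79 in Metastasis tumors and 4.78 in no metastasis tumors. Nkx2-2, a homeobox factor of endocrine and neural progenitors, ranged from 5.13 through 5.83 to 8.63 in Metastasis tumors and from 5.29 through 6.19 to 9.03 in no metastasis tumors, a difference of -0.24 (95% interval -0.59 to 0.11). Mycn, an oncogene of neuroendocrine tumors, differed by 0.04 (95% interval -0.17 to 0.26), Nfib, which promotes spread in mouse small cell lung cancer, by 0.03 (95% interval -0.09 to 0.14), and Ezh2, the Polycomb methyltransferase, by 0.02 (95% interval -0.04 to 0.08). Over 15 Notch pathway genes, which hold back neuroendocrine fate in several tissues, the median was -0.01. Among them Notch2 differed by 0.17 (95% interval -0.05 to 0.39) and the ligands Dll1 and Dll3 by -0.02 (95% interval -0.22 to 0.17) and -0.05 (95% interval -0.22 to 0.12).

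Genes of growth and of the pathways struck by T antigen showed no difference past the threshold either. The 25 proliferation genes had a mean level of 10.73 ± 0.08 in Metastasis tumors and 10.75 ± 0.08 in no metastasis tumors (SD) and a median difference of -0.01. Mki67, the Ki-67 antigen, ranged from 11.34 through 11.69 to 12.16 in Metastasis tumors and from 11.53 through 11.70 to 12.16 in no metastasis tumors. Its interval, -0.08 to 0.05, was among the narrower ones named here. Top2a, topoisomerase II alpha, differed by -0.02 (95% interval -0.09 to 0.04), Plk1, a mitotic kinase, by -0.08 (95% interval -0.16 to 0.01) and Aurka, Aurora kinase A, by -0.08 (95% interval -0.17 to 0.02). Over 10 genes of the Rb and p53 pathway the median was 0.00. Rb1 differed by -0.03 (95% interval -0.12 to 0.06) and Cdkn1b, the cell cycle inhibitor p27, by -0.06 (95% interval -0.13 to 0.02).

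Within the epithelial-poor tumors, what was left of epithelial expression did not differ by metastasis past the threshold. The epithelial list had a median difference of -0.03, with 21 of 31 genes below 0. Cdh1 ranged from 5.51 through 5.85 to 7.41 in Metastasis tumors and from 5.55 through 6.04 to 6.96 in no metastasis tumors, a difference of 0.00 (95% interval -0.20 to 0.21). Epcam ranged from 7.35 through 9.69 to 11.21 in Metastasis tumors and from 7.75 through 9.85 to 10.99 in no metastasis tumors, a difference of -0.27 (95% interval -0.65 to 0.11). Elf3, an epithelial ETS factor, had the smallest p of the list, at -0.24 (95% interval -0.46 to -0.02).

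The mesenchymal list gave a median of 0.02 over 14 genes. Zeb1, a repressor of E-cadherin, ranged from 7.42 through 8.48 to 9.19 in Metastasis tumors and from 6.87 through 8.44 to 8.81 in no metastasis tumors, a difference of 0.18 (95% interval 0.01 to 0.35). Its medians nearly met, and the lowest value was in a no metastasis tumor. Vim, vimentin, differed by -0.13 (95% interval -0.39 to 0.13) and Fn1, fibronectin, by 0.04 (95% interval -0.33 to 0.41). The lists of basal epithelium (0.02), urothelium (-0.01) and prostate luminal, androgen-driven genes (-0.07) were likewise near 0, with Krt15 at 0.14 (95% interval -0.10 to 0.38), Krt20 at -0.41 (95% interval -1.02 to 0.20) and Tgm4, a prostate secretory transglutaminase, at -0.28 (95% interval -0.61 to 0.05).

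Among matrix and stromal genes most differences leaned below 0 by small amounts. The matrix protease list had a median of -0.09 with 16 of 20 genes below 0, the collagen and fibroblast list -0.06 with 15 of 17, and the smooth muscle list -0.05 with 10 of 12. Over all probe sets 49.8% lay below 0. Genes of a list can vary together across tumors, so signs counted within any list need not be independent. The list means differed by less than the SD between tumors, which is not a test of the means. For matrix protease genes they were 6.83 ± 0.21 in Metastasis and 6.93 ± 0.26 in no metastasis tumors (SD). For collagen and fibroblast genes they were 7.35 ± 0.49 and 7.42 ± 0.57. Mmp10, a stromelysin, had medians of 5.31 in Metastasis tumors and 5.37 in no metastasis tumors and differed by -0.12 (95% interval -0.22 to -0.03). Reck, an inhibitor of matrix proteases, differed the other way, by 0.15 (95% interval 0.01 to 0.28). Mmp7, matrilysin, differed by -0.48 (95% interval -1.09 to 0.13), Mmp2 by -0.08 (95% interval -0.50 to 0.33), Col1a1 by -0.08 (95% interval -0.44 to 0.29), Dcn (decorin) by -0.32 (95% interval -0.82 to 0.19) and Acta2 (smooth muscle actin) by -0.04 (95% interval -0.36 to 0.28).

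No endothelial or hypoxia gene differed past the threshold. The endothelial list had a median of 0.03 over 19 genes, with Pecam1 (the endothelial antigen CD31) at 0.09 (95% interval -0.13 to 0.32) and Tek (an angiopoietin receptor) at 0.17 (95% interval 0.00 to 0.34). The hypoxia and glycolysis list had a median of -0.05 with 14 of 16 genes below 0. Slc2a1, a glucose transporter, differed by -0.09 (95% interval -0.35 to 0.17).

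The median differences of the immune lists ran from -0.02 to 0.02. The medians were 0.00 for macrophages, 0.01 for neutrophils, 0.00 for T and NK cells, 0.01 for B and plasma cells, 0.02 for chemokines, 0.00 for antigen presentation and -0.02 for the interferon response. Adgre1, the macrophage antigen F4/80, ranged from 5.49 through 6.88 to 9.72 in Metastasis tumors and from 5.95 through 7.02 to 8.70 in no metastasis tumors, a difference of -0.06 (95% interval -0.38 to 0.27). Cd3e of the T cell receptor complex stayed between 4.84 and 5.50 in Metastasis tumors and between 4.75 and 5.53 in no metastasis tumors. H2-K1, a class I molecule, differed by 0.07 (95% interval -0.17 to 0.31) and Ccl2, a monocyte attractant, by -0.03 (95% interval -0.24 to 0.18).

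Genes listed as promoters or suppressors of metastasis elsewhere gave medians of -0.01 over 15 and -0.02 over 9. Ptgs2, the inducible cyclooxygenase, had the smallest p of the promoters. It ranged from 4.58 through 5.55 to 9.77 in Metastasis tumors and from 4.59 through 6.11 to 10.52 in no metastasis tumors. The difference of -0.60 (95% interval -1.19 to -0.01) lay within 2 nearly equal ranges. Cxcr4, a chemokine receptor, differed by 0.06 (95% interval -0.13 to 0.25), Nme1, a nucleoside diphosphate kinase, by 0.05 (95% interval -0.10 to 0.19) and Cd82, a tetraspanin, by 0.03 (95% interval -0.08 to 0.15).

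Marker genes of seminal vesicle and of skeletal muscle were high in single arrays of both groups. The mean of the seminal vesicle list exceeded 6 in 4 Metastasis tumors, up to 9.38, and in 3 no metastasis tumors, up to 9.88, and its median difference was -0.10 over 6 genes. The mean of the skeletal muscle list exceeded 6 in 5 Metastasis tumors, up to 8.07, and in 1 no metastasis tumor at 6.07. All 6 muscle genes had differences above 0, and Myh1, a fast muscle myosin, differed by 0.27 (95% interval 0.03 to 0.52), with a highest value of 7.23 in Metastasis tumors and 4.53 in no metastasis tumors while the medians were 4.18 and 4.06. The adipocyte (-0.06), Schwann cell (-0.04) and red blood cell (0.03, 1 gene) lists were close to 0. The part of these arrays in the other results was not tested.

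The study mapped loci for distant metastasis-free survival on chromosomes 1 and 11, and the transcripts listed for those loci, named or not, were looked up by identifier. Of 538 on chromosome 1, 15 (2.79%) had an unadjusted p under 0.05 and 0 passed Benjamini-Hochberg adjustment in limma. Of 545 on chromosome 11 there were 16 (2.94%), and again 0 passed. Over all probe sets tested the share was 2.63% of the named and 2.9% of the unnamed ones. B9d1, a ciliary transition zone gene, ranged from 7.67 through 8.10 to 8.82 in Metastasis tumors and from 7.66 through 8.00 to 8.46 in no metastasis tumors, a difference of 0.09 (95% interval -0.01 to 0.19). Map2, a neuronal microtubule protein among the 3 named chromosome 1 transcripts of smallest p, differed by -0.13 (95% interval -0.24 to -0.03).

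The genes that varied most among the epithelial-poor tumors spanned wide ranges in both groups. By SD over the 89 tumors the leading probe sets included Syt4, a synaptotagmin, from 4.72 to 11.10, Ecel1, a neuronal peptidase, from 5.93 to 11.82, Trhr, the receptor of thyrotropin-releasing hormone, from 4.19 to 11.25, Dsc3 from 4.61 to 11.62, and Esr1, estrogen receptor alpha, from 6.20 to 12.10. Between Metastasis and no metastasis tumors they differed by -0.26 (95% interval -1.20 to 0.68), -0.28 (95% interval -1.15 to 0.60), 0.21 (95% interval -0.66 to 1.07), 0.10 (95% interval -0.87 to 1.06) and -0.11 (95% interval -0.94 to 0.72). Of the 30 most variable probe sets 0 had an unadjusted limma p under 0.05, beside 2.63% of all probe sets. For such genes the intervals of single probe sets reach about 1 log2 unit on either side, so differences up to about that size could have been missed. They are not widened for the number tested, so the adjusted test could have missed larger differences too.

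Whether the difference by metastasis was itself another one in the epithelial-poor tumors was tested as an interaction, that is, the difference in epithelial-poor tumors minus the difference in the tumors they were set against. Against all 37 other tumors 1 of 23507 probe sets passed (0.00425%), and 2078 (8.84%) had an unadjusted p under 0.05. This was Habp2, a secreted serine protease that binds hyaluronan. It ranged from 5.38 through 5.89 to 6.17 in Metastasis and from 5.58 through 5.86 to 6.25 in no metastasis epithelial-poor tumors, 0.00 apart (95% interval -0.07 to 0.07). In the other tumors it ranged from 5.68 through 5.90 to 6.44 in Metastasis and from 5.85 through 6.26 to 7.23 in no metastasis tumors. The difference of the differences was 0.49 (95% interval 0.31 to 0.66, limma adjusted p = 0.00588), and the call was lost without either of 2 no metastasis tumors under 2 g. These 2 tumors had the highest Dsp of the series, 10.88 and 11.05. In the 37 other tumors median Dsp was 8.14 in Metastasis and 9.56 in no metastasis tumors. Since Dsp chose the tumors, the Habp2 call cannot tell metastasis from the level of Dsp. Extl2, a glycosyltransferase of the exostosin family, came next at -0.43 (limma adjusted p = 0.0558). Behind it Sumf2 (-0.44) and Pgrmc1 (-0.37) on the negative side and Gxylt1 (0.30) and Oxct2b (0.54) on the positive side had adjusted limma p between 0.170 and 0.320.

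Against the 7 Dsp-high tumors of 2 g or more, 14 probe sets passed the interaction test (0.0596%), 6 with a positive and 8 with a negative difference of differences, and 2347 (9.98%) had an unadjusted p under 0.05. In every one of the 14 the epithelial-poor tumors themselves differed by 0.08 or less in size, and the Dsp-high side was 5 Metastasis tumors against 2 no metastasis tumors. Lamp5, a lysosome-associated protein of neurons, had values of 5.17, 5.29, 5.44, 5.61 and 5.64 in the Dsp-high Metastasis tumors against 5.72 and 7.65 in the Dsp-high no metastasis tumors. In epithelial-poor tumors its medians were 5.53 and 5.54. The difference of differences was 1.29 (95% interval 0.91 to 1.68, limma adjusted p = 3.99e-05). The fit used 1 variance per gene for all groups. The Lamp5 SD was 0.18 and 0.15 in the epithelial-poor groups but 1.36 in the 2 Dsp-high no metastasis tumors. The p and the interval thus do not measure the spread of those 2 tumors. Sorcs3, a neuronal sorting receptor, lay between 5.74 and 6.25 in the Dsp-high Metastasis tumors against 5.98 and 9.36 in the others (1.72, 95% interval 1.05 to 2.40), so that a single tumor held the high value. The same no metastasis tumor, of 7.8 g, held the high value of Lamp5, and without it the difference of differences was 0.33 for Lamp5 and 0.03 for Sorcs3, neither past the threshold.

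In the other direction Krt7, a simple epithelial keratin, lay between 7.20 and 9.38 in the Dsp-high Metastasis tumors against 6.49 and 7.54 in the Dsp-high no metastasis tumors (difference of differences -1.23, 95% interval -1.78 to -0.68), and its medians in epithelial-poor tumors were 6.22 and 6.29. The highest Krt7 levels, 9.38 and 9.20, lay in the Metastasis tumors of highest Dsp (10.47 and 10.78). Dsp in the Dsp-high no metastasis tumors was 7.32 and 9.30. Since Dsp chose the tumors, the Krt7 call cannot tell metastasis from the level of Dsp. The same holds for Ppl, 4932411E22Rik and Tdrp, whose 2 highest values lay in the same 2 Metastasis tumors of highest Dsp. For the other calls the part of the Dsp level was not tested. Myl12a, a myosin regulatory light chain, lay between 6.28 and 6.98 against 5.68 and 5.82 (-0.84, 95% interval -1.14 to -0.54). Acadl, a mitochondrial acyl-CoA dehydrogenase, lay between 8.98 and 10.27 against 7.78 and 8.51 (-1.16, 95% interval -1.68 to -0.65). For Myl12a and Acadl the 2 small groups did not overlap, nor did they for Habp2, Lamp5, Decr2, Tdrp, Mfsd4b3-ps and 4932411E22Rik. These genes were picked by a test on the same tumors, so the lack of overlap is not separate evidence. How often it occurs over all probe sets was not counted. Without that tumor of 7.8 g the Acadl value was -0.80, and without the other no metastasis tumor, of 3.1 g, the Krt7 value was -0.70, neither past the threshold; Myl12a too was short of it without the tumor of 7.8 g. The number called turned strongly on single Dsp-high tumors: without either of the 2 no metastasis tumors it was 9 or 104, of which 3 and 8 were among the 14, and without each Metastasis tumor it ran from 14 to 172. Without the Metastasis tumor of 4.9 g the 14 calls held 7 of the 14 genes, and without that of 4.7 g there were 32 calls with 10 of them. Without each of the other 3 Metastasis tumors all 14 were still called.

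**Figure D5:**
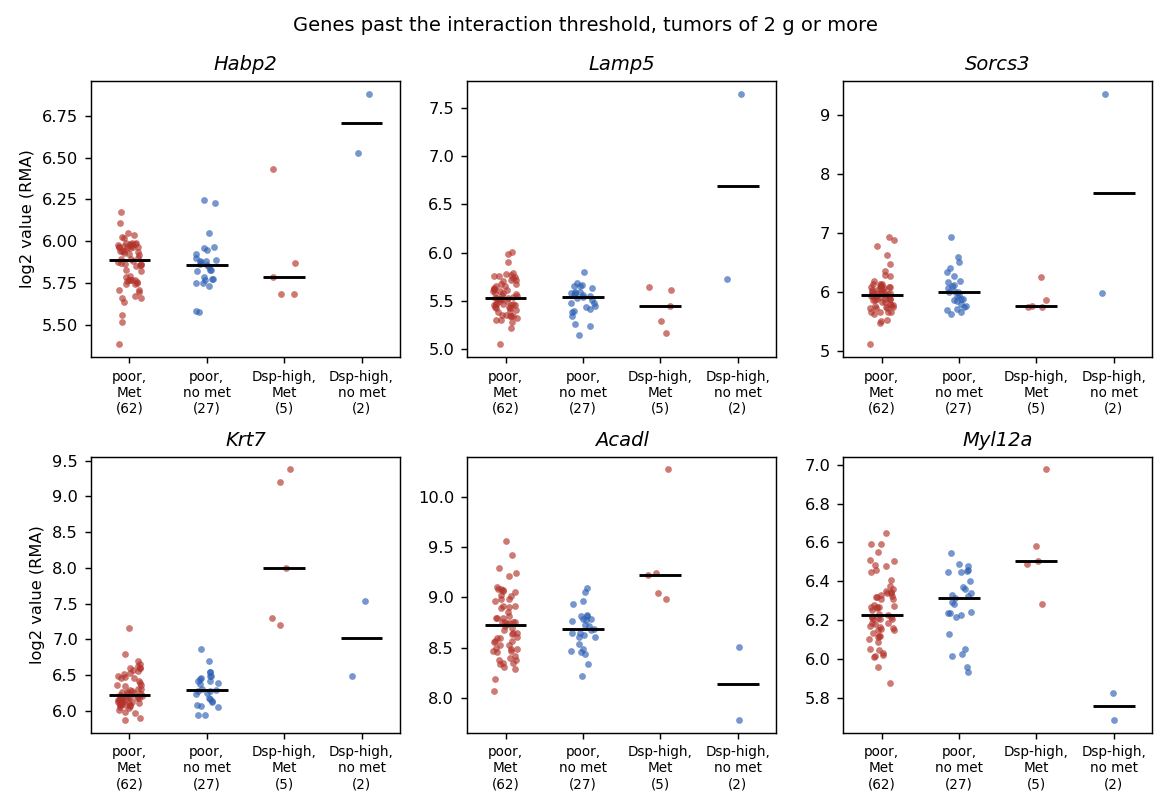
log2 values (vertical axes) of 6 genes past the interaction threshold in single tumors of 2 g or more: epithelial-poor Metastasis (n = 62) and no metastasis (n = 27) on the left, Dsp-high Metastasis (n = 5) and no metastasis (n = 2) on the right; black bars are medians. The epithelial-poor groups have nearly the same medians (5.89 and 5.86 for Habp2), and the separation lies among the 7 Dsp-high tumors.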

How the data were processed

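Expression was measured in 126 primary prostate tumors, 1 Affymetrix mouse gene array per male. The authors scanned the arrays and used Partek to normalize by RMA, summarise and log2-transform them; the deposited values are these log2 values (1.94 to 14.4), with no detection calls. Arrays have no read depth; the number of tumors limits precision. RNA extraction is given as a Qiagen kit in the labels and as TRIzol in the methods.

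Groups came from the description label. Dsp and burden chose the tumors, and the members, gene lists and tests were chosen with earlier results of these data known. Probe sets with a gene symbol in the platform annotation (23521 with 1, 1820 with several, 16004 with none) were kept when their mean over 126 arrays was not below the 10th percentile (log2 3.42), which left 23507. Metastasis minus no metastasis and its interaction with the selection were fitted with limma 3.58.1 (R 4.3.3, lmFit and eBayes), Benjamini-Hochberg adjustment over all 23507 and a threshold of 0.05, with 95% intervals from the fit. A gene in a list is its probe set of highest mean. Shares were compared by Fisher's exact test (SciPy 1.17.1); burden, which chose the tumors, is described with no test. The fits were tested on simulated data. Named were the 10 probe sets of smallest p in each direction, from each list the first 2 genes and the one of smallest p, the 3 of smallest interaction p in each direction, and Dsp, B9d1, Rb1, Mycn, Aurka, Nfib and Ezh2; values are given for most of them. Nothing in the labels says how the arrays were batched; tag number was split at 500, 800 and 1000. The lists were those in the plot of 29 lists. Alternatives in filter, test, scaling, covariates, limits and arrays are given in the closing section. Each male is 1 sample, so p-values measure the spread between males, with 1 variance per gene for all groups of a fit. Where a small group varied more than the others, its own spread is not measured.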

Additional observations from a re-analysis of the deposited data

Results flagged for a closer look

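The 15 differences of differences that passed the limma interaction threshold are given with their direction (epithelial-poor tumors minus the tumors compared). Habp2 had 0.49 against all other tumors and 0.81 against the Dsp-high tumors of 2 g or more. Against the Dsp-high tumors the other positive values were 1.33 for Tmem217, 1.72 for Sorcs3, 1.29 for Lamp5, 0.77 for Tacr3 and 1.14 for Pgr15l. The negative values were -1.16 for Acadl, -1.04 for Mfsd4b3-ps, -1.25 for 4932411E22Rik, -1.23 for Krt7, -1.07 for Ppl, -1.27 for Decr2, -0.84 for Myl12a and -0.75 for Tdrp. The p-values behind these calls rest on 1 variance per gene for all groups, so they do not measure the spread of the smaller groups. Among the Dsp-high tumors, Krt7, Ppl, 4932411E22Rik and Tdrp were highest in the Metastasis tumors of highest Dsp. Their calls cannot be told apart from the level of Dsp, which chose the tumors. Nor can the Habp2 call against all other tumors, which was lost without either of the tumors of highest Dsp in the series. In the epithelial-poor tumors none of the genes listed here differed by metastasis past the threshold.

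Several of them turned on single Dsp-high tumors. Without the no metastasis tumor of 3.1 g Tmem217 was at 0.000906 and Krt7 at -0.70. Without the no metastasis tumor of 7.8 g Decr2 was at -0.64, Lamp5 at 0.33, Sorcs3 at 0.03, Tacr3 at -0.0733 and Pgr15l at -0.253. Without the Metastasis tumor of 4.9 g Ppl was at -0.71. None of these values passed the limma threshold.

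For 3 of 19 genes examined, the highest of the 5 Dsp-high Metastasis tumors was marked by Dixon's criterion. The genes were chosen by fits that used these same tumors, so the usual chance rate of about 1 in 20 groups does not apply. The marked tumor was the same, of 4.9 g, for Acadl (10.27) and Habp2 (6.43), and another, of 3.07 g, for Sorcs3 (6.25). For Sorcs3 the next value was 5.87, and epithelial-poor tumors reached 6.93.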

How the results depend on the processing

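The count of 0 genes between Metastasis and no metastasis tumors was 0 under each of the 20 other settings (filters, tests, scaling, covariates, tag range as a block, other limits of Dsp and burden) and without each of the 89 tumors in turn (range 0 to 0). No paired analysis was possible because the labels give replicates no number shared between groups. The neuroendocrine mean as a covariate gave the smallest adjusted p, 0.540. The 20 leading genes kept their direction and stayed short of the threshold in all 395 refits. The burden difference lay between 0.61 and 0.98 g with other limits and without the most extreme burdens, and was 7.42 when taken in mean ranks. Some of these settings move the burden limit itself. Within the tags from 500 to under 800 the difference was -0.41 g. The difference in the share with metastasis changed sign against Dsp-high tumors with burden limits of 1 g (1.78 points) and 3 g (4.22 points), and against all other tumors with Dsp under 7.5 (-0.556 points).

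Interaction calls were unstable. Against all other tumors (1 call) there were 2 with the filter at the 25th percentile, 0 with Dsp under 7.5 and 0 with burden of 3 g or more; with Dsp under 6.5 there was 1, which was not Habp2. Without single tumors the range was 0 to 4. Against Dsp-high tumors (14 calls) there were 8 with burden as a covariate (7 of the 14), 9 with tag range as a block (8 of the 14), 28 and 102 with Dsp under 6.5 and 7.5 (2 and 8 of the 14), and 0 and 104 with burden limits of 1 and 3 g (0 and 14 of the 14); without single tumors, chosen after seeing the data, the range was 9 to 172. Tmem217 changed sign with Dsp under 7.5 (-0.0902), and without 1 of the 2 Dsp-high no metastasis tumors so did Tacr3 and Pgr15l, whose range without single tumors was -0.0733 to 1.61 and -0.253 to 2.52. The cause was not tested.

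With 27 no metastasis tumors, widely varying genes have intervals of about 1 log2 unit on either side. The arrays have no depth, and low signals lie near background.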

Other observations

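Within the 89 epithelial-poor tumors expression was also set against burden and against mouse tag range, comparisons chosen after the main one. Against burden 0 of 23507 probe sets passed the limma threshold, but 2652 (11.3%) had an unadjusted p under 0.05. Among those of smallest p were the ribosomal protein genes Rpl27 (slope 0.03 log2 units per g), Rpsa (0.04) and Rpl28 (0.02) and the initiation factor gene Eif3f (0.02), all rising with burden, and Synj1, a synaptic phosphatase gene, and Atp1b2, a sodium pump subunit gene, with slopes of -0.04 and -0.07 (smallest adjusted p 0.0941).

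By tag range 1918 probe sets (8.16%) passed an F-test in limma, led by Dync1i2, a dynein chain gene (adjusted p = 0.000157), where the metastasis label gave 0. No source at hand says what the tag ranges stand for.

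Of the 3916 pairs of epithelial-poor arrays, correlations ran from 0.928 to 0.992. The array that correlated least with the others was a Metastasis tumor with a mean correlation of 0.943, against a median of 0.971, and the metastasis comparison gave 0 calls without it too.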
